A study of Mus musculus with 20 samples.

Results

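The genes described here are the enzymes of heme synthesis, with Ppox, the gene for protoporphyrinogen oxidase, as the one that led to the choice, and Hmox1, which encodes the enzyme that opens the heme ring. They were measured by poly(A) RNA sequencing in male C57BL/6N mice kept on chow. The 9 genes Alas1, Alas2, Alad, Uros, Urod, Cpox, Ppox, Fech and Hmox1 were found by symbol among 24062 counted genes, and all 9 passed the filter on low counts in every comparison. The set was selected on the measured counts of Ppox, which were higher in pituitary libraries labelled KO and not in adipose tissue. For Ppox, and for all 9 genes in the comparison of KO with WT pituitaries, the values are therefore a description and carry no test.

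The libraries came from mice labelled as germline knockouts of the transcription factor gene Klf14 (KO) and from mice labelled wild type (WT). Each genotype label has 5 pituitary libraries and 5 libraries of iWAT (inguinal white adipose tissue), a subcutaneous fat depot. KO mice were 19 to 21 weeks old, with 4 of 5 at 21 weeks, and WT mice were 18 to 21 weeks old, with 2 of 5 at 21 weeks. Libraries are named by the numbers in the sample titles, called mouse numbers here, which differ within each group. No label says in words that each number is a separate animal, so part of the spread behind the p-values may be technical. Total counts were 13.6 to 17.6 M (mega) in pituitary libraries and 14.8 to 18.7 M in iWAT libraries.

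Klf14 itself stood at 31.8 ± 2.86 CPM in KO pituitaries and at 15.9 ± 1.72 CPM in WT pituitaries (SD, n = 5 each), and so was higher where the label says knockout. CPM is counts per mega-count of the library after scaling by trimmed mean of M-values (TMM). No label says which part of the gene was deleted, so these counts do not check the labels, and KO and WT below stand for libraries labelled so. Growth hormone (Gh) had a median of 94891 CPM in KO pituitaries and 95905 CPM in WT pituitaries, against 0.306 CPM in KO iWAT and 0.388 CPM in WT iWAT. In iWAT library KO 32 Gh reached 95.9 CPM. Adiponectin (Adipoq) ranged from 789.2 to 2347 CPM in KO iWAT and from 667 to 1888 CPM in WT iWAT, and was at 0 in 9 of 10 pituitary libraries.

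Heme is made from glycine and succinyl-CoA by a chain of enzymes that begins and ends in the mitochondrion. The 5-aminolevulinate synthases make the first intermediate, ALAS1 in most cells and ALAS2 in erythroid cells. ALAD, UROS and UROD are among the enzymes that then work in the cytosol. CPOX, PPOX and ferrochelatase (FECH) finish the ring and insert iron, and heme in turn lowers ALAS1 in liver and other tissues. Heme oxygenase 1 is induced by heme and by oxidative stress and is high in macrophages that take up red cells.

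The promoters shown are those of Ppox, which led to the choice, and of Alas1 and Alas2, the alternative genes for the first step, whose balance differed between the tissues. Each is the stretch just upstream of the start of transcription in RefSeq on GRCm38.p6, written 5′ to 3′ along the gene. Such a start matching the counted gene model was found for 6 of the 9 genes. Capitals mark, on either strand, the letters GGGCGG (the GC box of Sp and Krüppel-like factors), CACCC (a core that Krüppel-like factors bind), CCAAT (the letters bound by NF-Y) and AGATAA (a form of the GATA motif).
Ppox chr1:171281187-171281436 (-): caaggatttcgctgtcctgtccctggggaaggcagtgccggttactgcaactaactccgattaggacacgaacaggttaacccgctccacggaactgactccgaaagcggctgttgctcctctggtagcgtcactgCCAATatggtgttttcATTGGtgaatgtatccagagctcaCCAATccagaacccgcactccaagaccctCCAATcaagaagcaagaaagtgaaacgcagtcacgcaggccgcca
Alas1 chr9:106247955-106248204 (-): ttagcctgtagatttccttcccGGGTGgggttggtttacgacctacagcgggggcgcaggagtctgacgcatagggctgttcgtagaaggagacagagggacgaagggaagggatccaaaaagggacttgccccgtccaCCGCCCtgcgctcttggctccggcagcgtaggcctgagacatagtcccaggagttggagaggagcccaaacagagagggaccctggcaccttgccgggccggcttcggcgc
Alas2 chrX:150547167-150547416 (+): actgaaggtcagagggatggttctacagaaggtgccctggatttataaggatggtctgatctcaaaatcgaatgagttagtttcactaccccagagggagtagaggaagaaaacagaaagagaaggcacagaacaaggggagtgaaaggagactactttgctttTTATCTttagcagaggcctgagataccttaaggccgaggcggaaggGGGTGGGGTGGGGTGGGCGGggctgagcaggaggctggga
Ppox had 4 CCAAT matches and neither GGGCGG nor CACCC. Alas1 had 1 GGGCGG and 1 CACCC. Alas2 had 3 CACCC matches on the opposite strand, running into 1 GGGCGG whose first base the last of them shares, and 1 AGATAA. Over 32851 promoter windows of the same length, 32.7% held GGGCGG, 52% CACCC, 33.8% CCAAT and 9.99% AGATAA. These are matches of letters only, and no binding was measured.

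Ppox, the enzyme that oxidises protoporphyrinogen before iron is inserted, was higher in KO pituitaries. The gene lies on the minus strand of chromosome 1 from 171276992 to 171281186 (mm10), with 13 counted exons that share no bases with another gene. It had 47.6, 49.7, 47.9, 45.2 and 47.5 CPM in pituitary libraries KO 31, 32, 35, 50 and 66, against 38.3, 36.8, 40.7, 38.6 and 36.9 CPM in WT 33, 34, 48, 49 and 56. Every KO library lay above every WT library. The means were 47.6 ± 1.57 CPM in KO pituitaries and 38.3 ± 1.57 CPM in WT pituitaries (SD, n = 5 each), a difference of 9.34 CPM and a fold of 1.24 (log2 fold change 0.32, SE 0.05, edgeR quasi-likelihood fit). The counts behind these values were 628 to 895 reads in KO pituitaries and 544 to 695 in WT pituitaries.

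In that fit 90 of 16389 genes (0.549%) had a Benjamini-Hochberg adjusted p under 0.05, of which 68 were higher (0.415%) and 22 lower (0.134%) in KO pituitaries. Ppox stood at place 28 of the 90 by p and at place 53 of the 68 higher genes by fold, and is the 1 member of the 9 among them. Since Ppox led to the choice, nothing is read from that count. Leaving out each mouse in turn gave log2 fold changes of 0.30 to 0.34. Among mice of 21 weeks Ppox averaged 48.2 CPM in 4 KO pituitaries and 37.6 CPM in 2 WT pituitaries, and the log2 fold change in that smaller fit was 0.36. Ppox was not called there, nor with all 20 libraries in 1 fit, and the count of 90 genes ran from 1 to 288 over the settings tried.

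Cell type markers of the same libraries stood as follows. The 7 hormone genes summed to 107641 to 149418 CPM in KO pituitaries and 98033 to 143079 CPM in WT pituitaries. Among them Cga was lower in KO pituitaries without overlap (2007 to 2376 CPM, against 2442 to 2960 CPM in WT), as were 1.13% of all genes tested. Pomc averaged 9565 CPM in KO pituitaries and 6964 CPM in WT pituitaries, with overlap. Of the 7 genes 4 had a positive log2 fold change, and 0 were among the 90 calls (0.549% of all genes). The summed level of 12 macrophage markers ran from 92 to 264.9 CPM in KO pituitaries and from 96.5 to 115.7 CPM in WT pituitaries, with the top value in KO 50. Markers of the posterior lobe summed to 150.9 to 427.1 CPM in KO pituitaries and 183.5 to 286.4 CPM in WT pituitaries, with the top value in KO 66. Ppox was 45.2 CPM in KO 50, the lowest KO pituitary, and its log2 fold change was 0.33 without mouse 50 and 0.32 without mouse 66. The part of cell composition in the Ppox difference was not tested. B4galt3, a galactosyltransferase gene that ends 96 bases from Ppox on the opposite strand, had 51.7 ± 2.35 CPM in KO pituitaries and 48.4 ± 4.25 CPM in WT pituitaries, and its groups overlapped. Usp21, a deubiquitinase gene 766 bases from the Ppox start, had 22.3 ± 1.73 CPM in KO pituitaries and 21.2 ± 1.77 CPM in WT pituitaries.

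**Figure D1:**
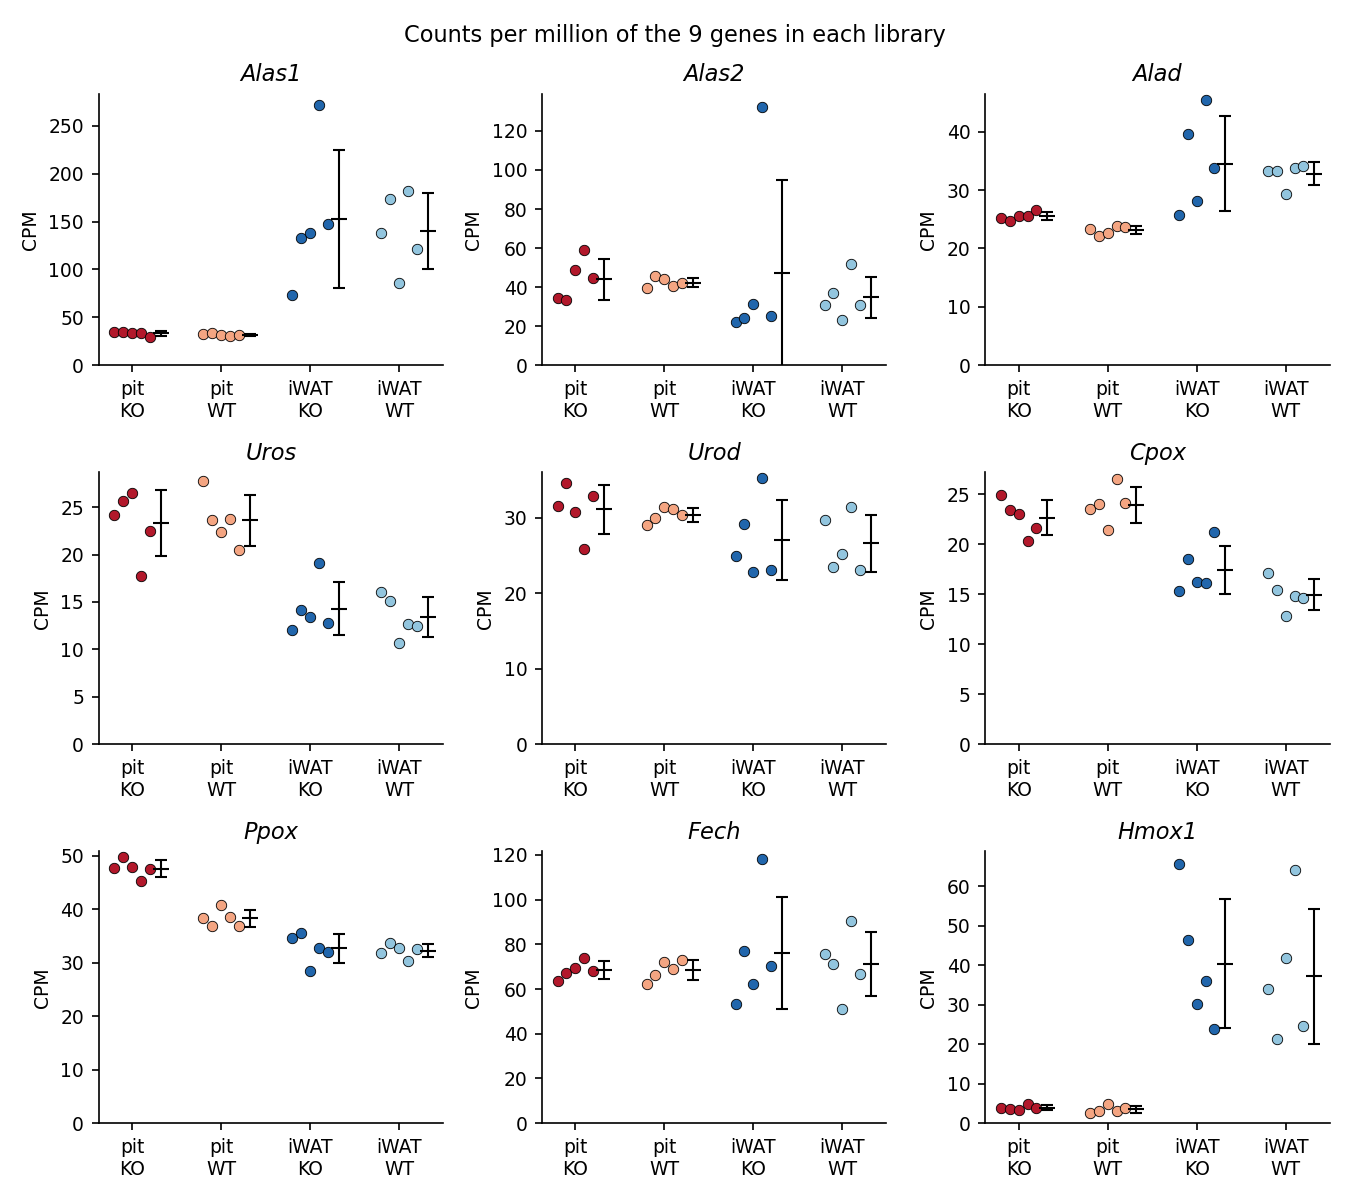
CPM of the 9 genes in each library (points), by tissue (pit, pituitary) and genotype label, each panel with its own axis from 0, and bars for mean ± SD over 5 libraries. The SD bar of Alas2 in KO iWAT is cut at 0. The Ppox points of KO pituitaries (45.2 to 49.7 CPM) all lie above those of WT pituitaries (36.8 to 40.7 CPM), and 1 KO iWAT library stands far above the other Alas2 points at 132.5 CPM.

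The other members showed smaller differences in the pituitary. Alad, which joins 2 molecules of aminolevulinate, had 25.2, 24.7, 25.6, 25.5 and 26.6 CPM in KO pituitaries, against 23.4, 22.1, 22.7, 23.8 and 23.6 CPM in WT pituitaries. Its groups did not overlap either, at a log2 fold change of 0.14 (SE 0.06), which was not among the 90 calls. Groups without overlap and higher in KO pituitaries were 2 of the 9 members and 1.72% of all genes tested, and without overlap and lower 0 of the 9 and 1.13%, shares from which nothing is read here, since the rule used this contrast.

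For the remaining 7 members the groups overlapped. Alas1 averaged 33.3 ± 2.33 CPM in KO pituitaries and 31.6 ± 1.21 CPM in WT pituitaries. Cpox, which makes the substrate of PPOX, averaged 22.7 ± 1.75 CPM in KO pituitaries and 23.9 ± 1.82 CPM in WT pituitaries. Fech, which takes up the product of PPOX, averaged 68.5 ± 3.87 CPM in KO pituitaries and 68.6 ± 4.36 CPM in WT pituitaries. The neighbours of Ppox in the pathway differed by -0.07 (SE 0.07, Cpox) and -0.001 (SE 0.056, Fech) on the log2 scale, against 0.32 for Ppox itself. Uros, Urod, Alas2 and Hmox1 had log2 fold changes of -0.02 (SE 0.11), 0.04 (SE 0.07), 0.05 (SE 0.14) and 0.15 (SE 0.18). The median of the 9 members was 0.053, against 0.00363 over all genes tested.

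Genes that followed Ppox most closely across the 10 pituitary libraries were ranked by Pearson's r of log2 CPM, among 15684 genes with a mean above 1 CPM. The first 5 were Nagk (r = 0.966), Sept10 (0.955), Galnt5 (0.954), Panx1 (0.947) and Klf14 (0.946). Nagk, an N-acetylglucosamine kinase gene, averaged 50.1 ± 2.03 CPM in KO pituitaries and 39.8 ± 1.4 CPM in WT pituitaries. Galnt5, a gene of mucin-type glycosylation, averaged 2.51 ± 0.256 CPM in KO pituitaries and 0.901 ± 0.136 CPM in WT pituitaries. All 10 libraries enter each r with both labels, so a shared step between labels is part of each value. Among the members Alad stood nearest (r = 0.828), Alas1 had 0.396, Fech -0.0459 and Cpox -0.338.

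In iWAT none of the 16105 genes tested passed between KO and WT libraries (0% called by edgeR at an adjusted p under 0.05, 89 genes at an unadjusted p under 0.05, and 0 called by DESeq2), and so 0 of the 9 members did. Ppox had 34.6, 35.5, 28.5, 32.7 and 32 CPM in KO iWAT, against 31.8, 33.6, 32.8, 30.3 and 32.6 CPM in WT iWAT, and the groups overlapped (log2 fold change -0.01, SE 0.08). The difference between its KO effects in the pituitary and in iWAT was 0.30 on the log2 scale (SE 0.09). The rule used both values, so this difference is a description too. Over all genes, none of 17731 passed the test of such a difference (0% called by edgeR, 427 at an unadjusted p under 0.05, and 1 called by DESeq2).

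**Figure D2:**
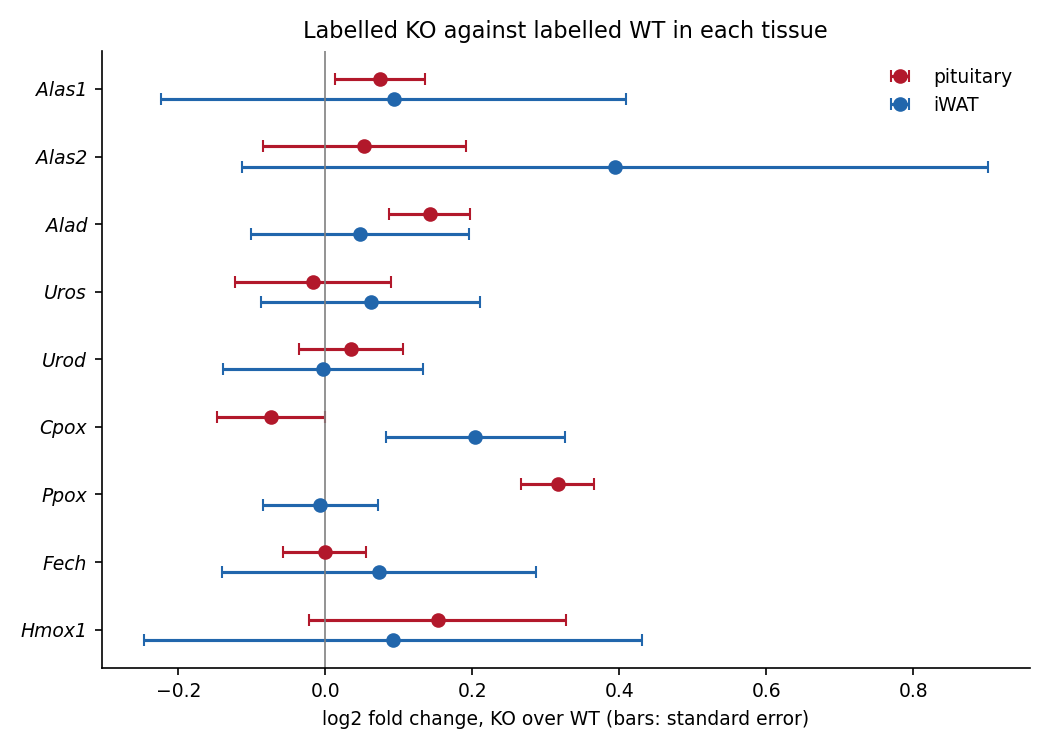
Log2 fold change of KO over WT for each gene in the pituitary and in iWAT, with standard errors from the edgeR fits of 5 against 5 libraries. Ppox in the pituitary lies at 0.32 and in iWAT at -0.01, and the standard errors in iWAT reach 0.51 (Alas2).

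Cpox had 15.3, 18.5, 16.2, 16.1 and 21.2 CPM in KO iWAT, against 17.1, 15.4, 12.8, 14.8 and 14.6 CPM in WT iWAT. KO libraries were higher in 21 of 25 pairs, at a log2 fold change of 0.20 (SE 0.12, adjusted p = 1 by edgeR), and the groups overlapped. Its difference of KO effects, pituitary minus iWAT, was -0.30 (SE 0.14, adjusted p = 1). The other 7 tested members had log2 fold changes between -0.003 (Urod, SE 0.14) and 0.39 (Alas2, SE 0.51) in iWAT, each with an adjusted p of 1. The standard errors in iWAT were wide for Alas1 (0.32), Hmox1 (0.34) and Alas2, so that a log2 difference of the size seen for Ppox in the pituitary lay within about 1 standard error for these genes.

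Alas2, the erythroid enzyme of the first step, lies on the plus strand of the X chromosome from 150547417 to 150570622. It had 22, 24.3, 31.1, 132.5 and 25 CPM in iWAT libraries KO 31, 32, 35, 50 and 66, against 31, 36.8, 23.2, 51.6 and 30.8 CPM in WT 33, 34, 48, 49 and 56. One library, KO 50, stood apart, and without it KO iWAT did not exceed 31.1 CPM. Its log2 fold change in iWAT was 0.39 with all libraries and -0.45 without mouse 50, neither of which passed the test. In the pituitary Alas2 had 34.6, 33.6, 48.5, 58.9 and 44.4 CPM in KO libraries, against 39.6, 45.5, 44, 40.4 and 41.9 CPM in WT libraries. The KO pituitaries spread on both sides of the WT ones, with mouse 50 highest again.

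Alas2 followed the globin genes. An erythroid score, the mean log2 CPM of 7 detected markers (6 globin genes and Slc4a1, the anion exchanger of red cells), correlated with Alas2 over the 10 iWAT libraries at Pearson r = 0.97 (permutation p = 2e-05, adjusted over 4 relations p = 8e-05; Spearman rho = 0.93, p = 0.00038, adjusted p = 0.00108). Over the 10 pituitary libraries r was 0.91 (permutation p = 0.00029, adjusted p = 0.00058; rho = 0.92, p = 0.00054, adjusted p = 0.00108). Without the 2 libraries farthest from the median score r was 0.99 in iWAT and 0.96 in the pituitary. The globin genes come in pairs with the same counted reads, and with 1 of each pair r was 0.97 in iWAT and 0.86 in the pituitary. Summed over distinct markers, erythroid levels ran from 864.4 to 5447 CPM in KO iWAT and from 626.6 to 2702 CPM in WT iWAT, and from 722.4 to 1662 CPM in KO pituitaries and 780.7 to 1140 CPM in WT pituitaries.

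The alpha-globin gene Hba-a1 had 2198 CPM in iWAT library KO 50, against 386.3 to 490.6 CPM in the other KO iWAT libraries and 280 to 1255 CPM in WT iWAT. Alas2 in KO 50 was therefore high together with globin. In bulk tissue fewer cells of a type and less RNA per cell cannot be told apart, and whether blood in the tissue set these values was not tested. Per 100 reads of Hba-a1, Alas2 had 8.73 ± 1.12 reads in KO pituitaries and 9.5 ± 1.12 in WT pituitaries, against 5.74 ± 0.463 in KO iWAT and 5.63 ± 1.56 in WT iWAT (SD, n = 5 each; a ratio chosen after the values were seen).

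Part of the Alas2 signal is uncertain. In GENCODE vM21 the last part of Alas2 shares 295 bases, 14.9% of its counted length, with Apex2 on the opposite strand, and another 29 bases with Mir3620. Counting used no strand option per the file headers, so antisense reads there count for Alas2. Apex2, an apurinic endonuclease gene, had 23.4 ± 1.06 CPM in KO pituitaries and 22.2 ± 1.23 CPM in WT pituitaries, against 17.3 ± 2.05 CPM in KO iWAT and 15.8 ± 1.36 CPM in WT iWAT (SD, n = 5 each). Its part in the Alas2 counts was not tested.

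The tissues differed far more than the genotype labels. Ppox is left out of the counts that follow, because the pituitary libraries led to its choice. In KO libraries 5 of the 8 other members differed between the pituitary and iWAT, where 75.1% of 16905 genes did (edgeR, adjusted p under 0.05). Of these 2 were higher in the pituitary (37.3% of all genes) and 3 lower (37.8%). In WT libraries 6 of the 8 differed, 3 in each direction, where 79.1% of 17023 genes did (40.2% higher and 38.9% lower). These shares lie near those of all genes. The tissues did not overlap, with the pituitary higher, for 0 of the 8 in KO libraries (33.2% of all genes) and 2 in WT libraries (35.5%), and with the pituitary lower for 2 in KO libraries (30.3%) and 3 in WT libraries (34%). The median log2 fold change of the 8 members was -0.116 in KO libraries, against -0.0241 over all genes tested there. In WT libraries it was 0.092, against 0.0121 over all genes tested there.

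**Figure D3:**
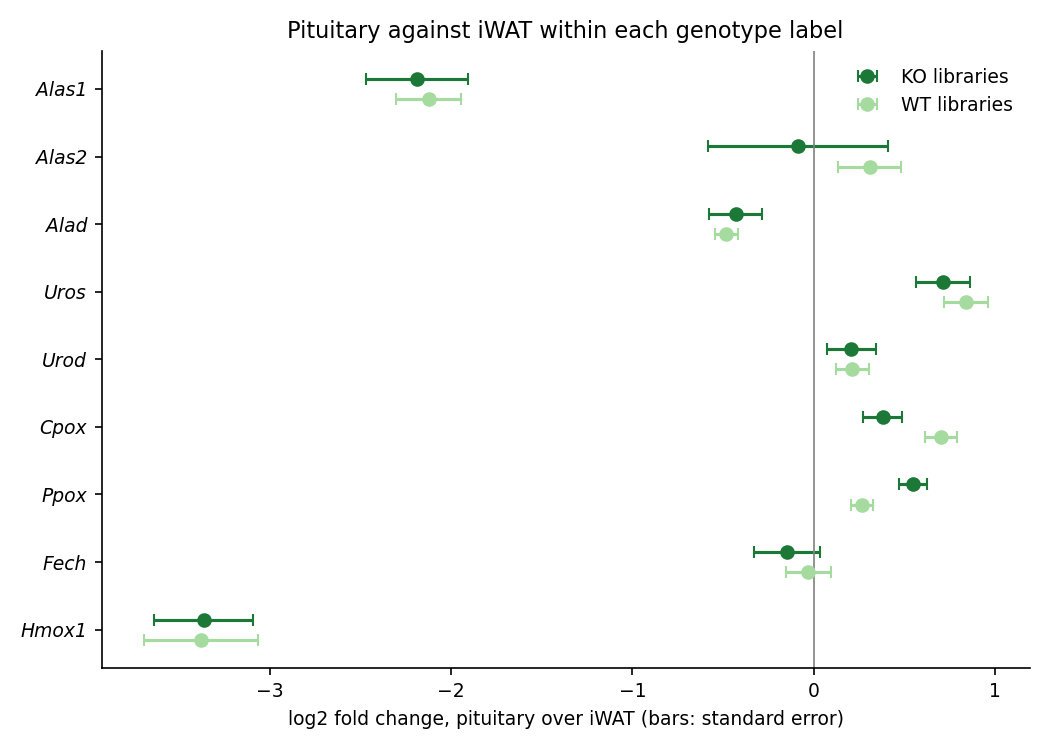
Log2 fold change of pituitary over iWAT for each gene, in KO libraries and in WT libraries, with standard errors from edgeR fits of 5 against 5 libraries. Alas1 and Hmox1 lie below -2 in both, and Uros, Urod, Cpox and Ppox lie above 0 in both.

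Alas1, the enzyme of the first step outside erythroid cells, was lower in the pituitary. The gene lies on the minus strand of chromosome 9 from 106233455 to 106247954. It had 34.9, 35.1, 33.3, 33.8 and 29.3 CPM in KO pituitaries, against 73.7, 132.4, 138.1, 271.6 and 147.5 CPM in KO iWAT. In WT libraries it had 32.3, 33.4, 31.2, 30.2 and 31.1 CPM in pituitaries, against 137.6, 173.9, 85.6, 182.2 and 121.3 CPM in iWAT. No pituitary library reached the lowest iWAT library, and the iWAT libraries spread over a wider range than the pituitary ones. Alas1 was 4.36-fold lower in WT pituitaries than in WT iWAT (log2 fold change -2.12, SE 0.18, adjusted p = 6.46e-07) and 4.56-fold lower in KO pituitaries than in KO iWAT (-2.19, SE 0.28, adjusted p = 3.63e-05), both by edgeR.

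Set per length, as RPKM (CPM per kilobase of counted exons), the RNA of Alas1 and Alas2 was shared differently between the tissues. These are shares of RNA in bulk tissue, not of enzyme. Alas2 followed the globin genes in both tissues, and the part of blood in the shares was not tested. Alas2 made up 67.9 ± 5.88% of the sum of Alas1 and Alas2 RPKM in KO pituitaries and 68.7 ± 1.11% in WT pituitaries, against 29.9 ± 9.21% in KO iWAT and 29 ± 2.51% in WT iWAT (SD, n = 5 each). The pituitary shares, 61.2 to 74.2%, all lay above the iWAT shares, 21.9 to 44.5%. The top iWAT share was that of library KO 50. Alas2 itself did not pass the test between tissues, at log2 fold changes of -0.09 (SE 0.50, adjusted p = 0.883 by edgeR) in KO libraries and 0.31 (SE 0.17, adjusted p = 0.123) in WT libraries. Without mouse 50 it was higher in KO pituitaries than in KO iWAT (0.67, adjusted p = 0.00255), and without mouse 49 higher in WT pituitaries (0.51, adjusted p = 0.00533).

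**Figure D4:**
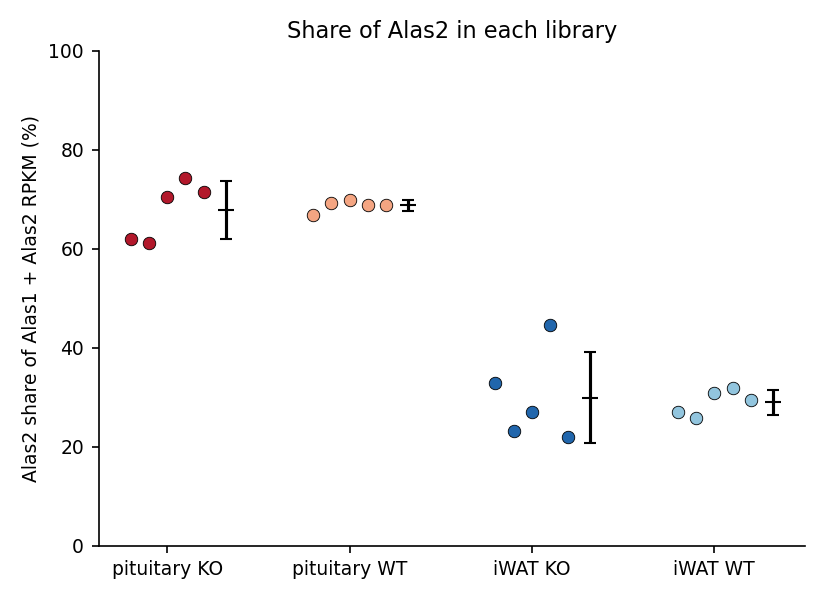
Share of Alas2 in the sum of Alas1 and Alas2 RPKM in each library (points, in %), with bars for mean ± SD over 5 libraries. Pituitary libraries lie between 61.2 and 74.2% and iWAT libraries between 21.9 and 44.5%.

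Of the cytosolic steps, Alad was lower in the pituitary. It had 25.7, 39.7, 28.1, 45.4 and 33.8 CPM in KO iWAT and 33.3, 33.3, 29.3, 33.8 and 34.2 CPM in WT iWAT, above the pituitary values given earlier in WT libraries and, in KO libraries, overlapping them in 1 library (25.7 CPM in KO 31). Its log2 fold change was -0.43 in KO libraries (SE 0.15, adjusted p = 0.0205 by edgeR) and -0.48 in WT libraries (SE 0.07, adjusted p = 3.2e-05). The KO call was lost without mouse 32, 50 or 66, with adjusted p up to 0.105. The gene lies on the minus strand of chromosome 4 from 62505984 to 62520063.

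Uros, which closes the porphyrin ring, was higher in the pituitary. The gene lies on the minus strand of chromosome 7 from 133686330 to 133709295. It had 24.2, 25.6, 26.5, 17.7 and 22.5 CPM in KO pituitaries, against 12, 14.1, 13.4, 19.1 and 12.8 CPM in KO iWAT. In WT libraries it had 27.8, 23.6, 22.4, 23.8 and 20.5 CPM in pituitaries, against 16, 15.1, 10.7, 12.7 and 12.5 CPM in iWAT. The WT tissues did not overlap, while in the KO libraries mouse 50 had the lowest pituitary and the highest iWAT value. The log2 fold changes were 0.71 in KO libraries (SE 0.15, adjusted p = 0.00124) and 0.84 in WT libraries (SE 0.12, adjusted p = 5.15e-05), by edgeR.

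Urod, which trims the side chains of the ring, lies on the minus strand of chromosome 4 from 116990217 to 116994375. It ran from 25.8 to 34.6 CPM in KO pituitaries and from 22.8 to 35.3 CPM in KO iWAT, and from 29 to 31.4 CPM in WT pituitaries and 23.1 to 31.4 CPM in WT iWAT. Its log2 fold change was 0.21 in KO libraries (SE 0.14, adjusted p = 0.186 by edgeR) and 0.21 in WT libraries (SE 0.09, adjusted p = 0.0473). The WT call was lost under 5 of the other settings tried and without mouse 34, 48 or 56.

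Of the last steps, Cpox was higher in the pituitary. The gene lies on the plus strand of chromosome 16 from 58670208 to 58680389. It had 24.9, 23.4, 23, 20.3 and 21.6 CPM in KO pituitaries and 23.5, 24, 21.4, 26.5 and 24.1 CPM in WT pituitaries. In WT libraries these values lay above all of those in iWAT, while in KO libraries the 21.2 CPM of iWAT library KO 66 fell among them. The log2 fold changes were 0.38 in KO libraries (SE 0.11, adjusted p = 0.00795) and 0.70 in WT libraries (SE 0.09, adjusted p = 1.63e-05), by edgeR. Ppox, described without a test because these comparisons share the pituitary libraries that led to the choice, was 1.46-fold higher in KO pituitaries than in KO iWAT (log2 fold change 0.55, SE 0.08) and 1.2-fold higher in WT pituitaries than in WT iWAT (0.27, SE 0.06). Neither genotype label showed an overlap of the tissues for Ppox.

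Fech, on the minus strand of chromosome 18 from 64456550 to 64489066, did not pass the test between tissues. It had 63.5 to 74.1 CPM in KO pituitaries, against 53.4 to 118.2 CPM in KO iWAT, and 62.3 to 73.1 CPM in WT pituitaries, against 51 to 90.5 CPM in WT iWAT. The iWAT values lay on both sides of the pituitary ones. The log2 fold changes were -0.15 in KO libraries (SE 0.18, adjusted p = 0.481) and -0.03 in WT libraries (SE 0.12, adjusted p = 0.838), by edgeR.

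Hmox1 was lower in the pituitary by more than any other member. The gene lies on the plus strand of chromosome 8 from 75093618 to 75100593. It had 3.83, 3.46, 3.38, 4.97 and 3.86 CPM in KO pituitaries, against 65.6, 46.3, 30.1, 35.9 and 23.9 CPM in KO iWAT. In WT libraries it had 2.58, 3.18, 4.74, 3.16 and 3.8 CPM in pituitaries, against 34, 21.2, 41.8, 64 and 24.7 CPM in iWAT. The tissues did not overlap. Hmox1 was 10.3-fold lower in KO pituitaries than in KO iWAT (log2 fold change -3.37, SE 0.28, adjusted p = 1.05e-06) and 10.4-fold lower in WT pituitaries than in WT iWAT (-3.38, SE 0.31, adjusted p = 1.45e-06), by edgeR.

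Macrophage markers moved the same way between tissues, and their part in the Hmox1 difference was not tested. All 12 were lower in the pituitary with a median log2 fold change of -2.65 in KO libraries and -3.06 in WT libraries. Over all genes 37.8% were called lower in KO pituitaries and 38.9% in WT pituitaries. The summed level of the 12 markers was 92 to 264.9 CPM in KO pituitaries and 96.5 to 115.7 CPM in WT pituitaries, against 1058 to 1518 CPM in KO iWAT and 1038 to 2277 CPM in WT iWAT. Within a tissue, Hmox1 correlated with the mean log2 CPM of the 12 markers at r = 0.79 in iWAT (n = 10, permutation p = 0.0047, adjusted over 4 relations p = 0.00627; rho = 0.77, p = 0.0122, adjusted p = 0.0163). In the pituitary r was 0.68 (n = 10, permutation p = 0.0212, adjusted p = 0.0212; rho = 0.75, p = 0.0163, adjusted p = 0.0163). Without the 2 libraries farthest from the median score r was 0.61 in iWAT (exact permutation p = 0.107) and 0.60 in the pituitary (exact permutation p = 0.111), so neither passed with the 8 libraries left.

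The spread of several members across iWAT libraries went with adipocyte markers, a relation computed for all 9 members after the values were seen. The score was the mean log2 CPM of 9 adipocyte genes, among them Adipoq, Plin1 and Lep, whose summed level ran from 10279 to 35591 CPM in KO iWAT and from 10121 to 23578 CPM in WT iWAT. Fech had r = 0.90 with it over the 10 libraries (permutation p = 0.00081, adjusted over 9 relations p = 0.00729; rho = 0.92, p = 0.00043, adjusted p = 0.00387), and r = 0.87 without the 2 libraries farthest from the median score (exact permutation p = 0.00384). Alas1 had r = 0.85 (permutation p = 0.00293, adjusted p = 0.0132; rho = 0.75, p = 0.0174, adjusted p = 0.0522) and r = 0.69 without those 2 libraries (exact permutation p = 0.051). Uros (r = 0.81, adjusted p = 0.0151) and Alad (r = 0.74, adjusted p = 0.0383) passed for r and did not for rho (adjusted p = 0.0522 and 0.099), and without those 2 libraries r was 0.71 for Uros (exact permutation p = 0.0439) and 0.68 for Alad (exact permutation p = 0.0634). Alas2 (r = 0.65, adjusted permutation p = 0.0963), Urod (r = 0.58, adjusted p = 0.112) and Cpox (r = 0.55, adjusted p = 0.134) did not pass. For Urod this hung on those 2 libraries, since without them r was 0.89 (exact permutation p = 0.00362). Without them r was 0.69 for Alas2 (exact permutation p = 0.0478) and 0.11 for Cpox (exact permutation p = 0.795). Ppox (r = -0.17) and Hmox1 (r = -0.19) showed no such relation, each with an adjusted permutation p of 0.636. In iWAT the adipocyte score was highest in KO 50 (10.85) and lowest in WT 48 (8.98). The erythroid score was highest and lowest in the same libraries (9.44 and 6.3). Its relation with members other than Alas2 was not computed, so the parts of adipocytes and of blood in these relations cannot be told apart.

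**Figure D5:**
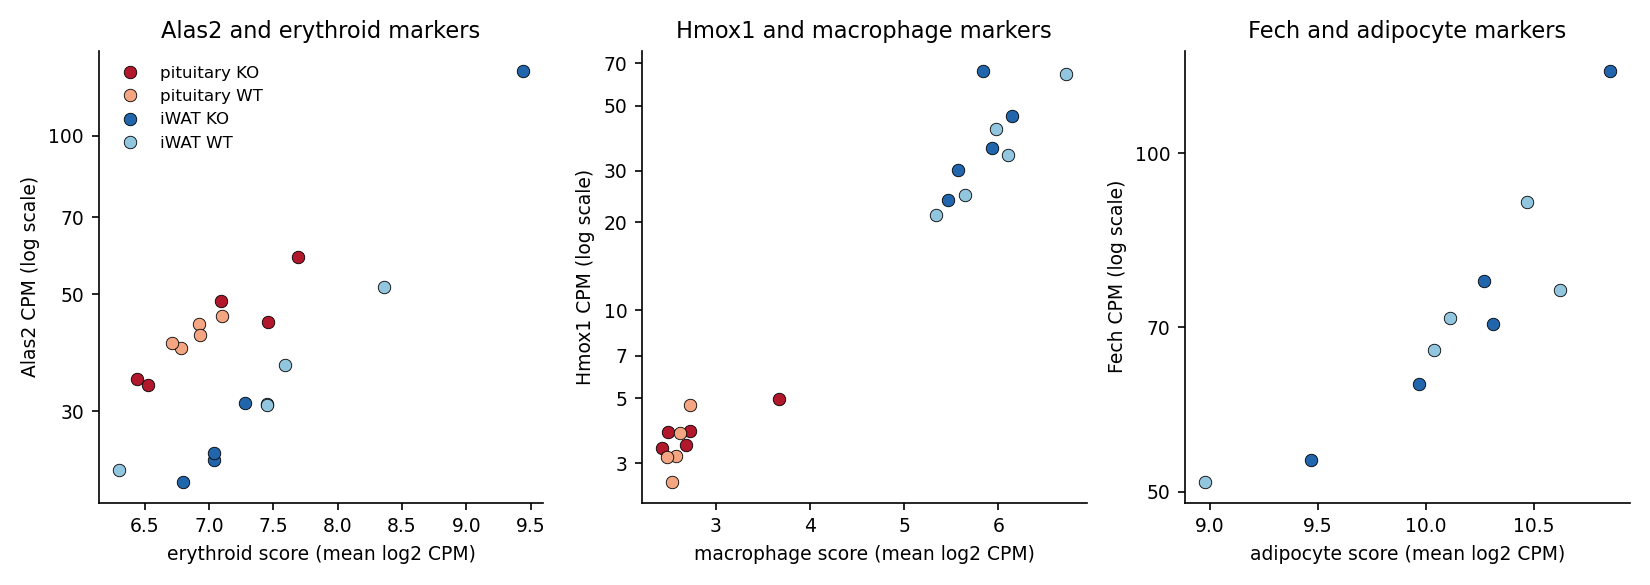
Alas2, Hmox1 and Fech (CPM, log axes) against the mean log2 CPM of erythroid, macrophage and adipocyte markers in each library, coloured by tissue and genotype label. The adipocyte panel shows iWAT only. Within each tissue Alas2 increases with the erythroid score (r = 0.97 in iWAT, 0.91 in the pituitary), and the pituitary and iWAT libraries form separate clusters in the macrophage panel.

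Ordered by RPKM, a level that can be compared between genes, Ppox came first in KO pituitaries at 26.1 ± 0.864, followed by Urod at 25.9 ± 2.74, Fech at 23.6 ± 1.33 and Alas2 at 22.2 ± 5.3. In WT pituitaries Urod came first at 25.3 ± 0.799, followed by Fech at 23.6 ± 1.5, Alas2 at 21.4 ± 1.26 and Ppox at 21 ± 0.862. In both, the first 3 each overlapped the next over libraries and the fourth lay above Uros without overlap. Uros, Alas1, Cpox, Alad and Hmox1 followed in that order, down to 2.47 ± 0.404 RPKM for Hmox1 in KO pituitaries and 2.22 ± 0.521 RPKM in WT pituitaries. In iWAT Alas1 came first, at 46.8 ± 22.3 RPKM in KO libraries and 43 ± 12.1 RPKM in WT libraries, and it overlapped Fech in both. Fech and Hmox1 came next and overlapped each other, at 26.3 ± 8.63 and 25.6 ± 10.4 RPKM in KO iWAT and 24.5 ± 4.93 and 23.6 ± 10.8 RPKM in WT iWAT. Cpox was last in iWAT, at 5.48 ± 0.754 RPKM in KO libraries and 4.69 ± 0.486 RPKM in WT libraries, and it overlapped Alad in KO libraries.

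Other genes of heme and iron handling were counted list by list. Between KO and WT labels none of 3 heme breakdown genes, 13 transport genes and 12 regulators passed the edgeR test in either tissue. Of the regulators, Klf1 was tested only in the pituitary and Gata1 only in iWAT. None of the iron genes passed either (15 tested in the pituitary and 16 in iWAT). Over all genes tested 0.549% passed in the pituitary and 0% in iWAT, so nothing is read from these counts. Between tissues most genes of these lists passed, as did most of all genes tested (75.1% in KO and 79.1% in WT libraries). Of the heme breakdown genes Hmox2, the constitutive heme oxygenase, was higher in the pituitary (log2 fold change 0.46 in KO libraries and 0.40 in WT libraries). The biliverdin reductase genes Blvrb (-1.73 in KO and -2.08 in WT libraries) and Blvra (-1.01 in KO and -1.09 in WT libraries) were lower, as Hmox1 was.

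Of 13 transport genes, 4 were higher and 6 lower in KO pituitaries than in KO iWAT, and 4 higher and 7 lower in WT pituitaries than in WT iWAT, so that the numbers called lay near the share of all genes. Mfsd7b, the heme exporter gene also called Flvcr1, was higher (1.4 in KO and 1.28 in WT libraries). Tspo, an outer mitochondrial membrane protein that binds porphyrins, was lower (-3.20 in KO and -3.24 in WT libraries), as was Tmem14c (-0.80 and -0.67), a carrier of protoporphyrinogen in erythroid cells. Their adjusted p by edgeR lay between 1.77e-08 and 1.94e-05.

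Of 15 iron genes tested, 1 was higher and 11 lower in KO pituitaries, and 0 were higher and 9 lower in WT pituitaries, each against iWAT. Over all genes 37.3% were higher and 37.8% lower in KO pituitaries, and 40.2% higher and 38.9% lower in WT pituitaries. The higher one was Slc25a28, a mitochondrial iron carrier gene (0.32 in KO libraries, and 0.15 with no call in WT libraries). The lower genes with the smallest p in WT libraries were Trf, which encodes transferrin (-5.95 in KO and -6.11 in WT libraries), and Ftl1, which encodes ferritin light chain (-1.71 in KO and -1.74 in WT libraries). Of 12 regulators tested, 2 were higher and 9 lower in KO pituitaries, and 2 higher and 8 lower in WT pituitaries. Bach1, a repressor of Hmox1 that binds heme, was lower in the pituitary (-0.76 in KO and -0.72 in WT libraries), as was Ppargc1a, a coactivator that induces Alas1 in fasted liver (-1.867 in KO and -2.001 in WT libraries). Nr1d2, a heme-binding nuclear receptor gene, was higher (1.08 in KO and 1.18 in WT libraries), as was Klf1, the erythroid Krüppel-like factor gene (1.53 and 1.56). The Klf1 level was low, with means of 1.39 CPM in KO pituitaries and 1.47 CPM in WT pituitaries, against 0.476 CPM in KO iWAT and 0.504 CPM in WT iWAT.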

How the data were processed

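The authors deposited whole-number read counts per gene, 1 file per library, made with featureCounts per the file headers: exons of a UCSC mm10 annotation, primary alignments, a read that meets several genes counted for each, and no strand option. The submitters' processing notes name STAR 2.4.0, featureCounts 1.4.4, mm10 and GRCm38. The labels give single-end reads of 100 nucleotides.

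Counts of all genes were fitted in R 4.3.3 by the quasi-likelihood test of edgeR 4.0.16 in its robust form, after filterByExpr and TMM scaling, and p was adjusted by Benjamini-Hochberg over all genes tested (threshold 0.05), with 5 libraries in each group and no covariate. The fits were KO against WT in each tissue, pituitary against iWAT within each genotype label, and the difference of the KO effects in 1 fit over 20 libraries. The standard error is the log2 fold change over the square root of F. Printed CPM use 1 TMM scaling over all 20 libraries, and RPKM divides by the counted exon length. Scores are mean log2 CPM with a prior count of 2, over markers above 0.5 CPM, and correlations used two-sided permutation of the pairing (every pairing where 8 libraries were left).

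Alternatives were RLE scaling, DESeq2 1.42.0, limma 3.58.1 voom, other filters, age, single libraries left out and the mouse number as a block. The fits were tested on simulated counts with 200 genes changed. Libraries of a group differed by more than sampling noise (smallest reduced chi-square 4.7), so all 20 were kept. That value does not show that the libraries came from separate animals. The members and lists were chosen with earlier results of these data known. Named genes are the 9 members, per list the 2 higher and 2 lower genes of smallest p between WT tissues, genes overlapping or next to a member, and the 5 genes most like Ppox. Some genes that this rule names are not reported here.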

Additional observations from a re-analysis of the deposited data

Results flagged for a closer look

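Of 36 groups of 5 libraries (9 genes in 4 groups) examined for a single library far from the rest, 2 held one, and chance alone gives about 1 in 20. Alas2 in KO iWAT was 132.5 CPM in mouse 50, against 31.1 CPM in the next library. The same library had the highest globin, Alas1 (271.6 CPM), Alad (45.4 CPM), Uros (19.1 CPM), Urod (35.3 CPM) and Fech (118.2 CPM) values of the KO iWAT libraries. It also had their highest summed level of adipocyte markers (35591 CPM). Its summed levels of lymph node (14.2 CPM) and skeletal muscle markers (16.5 CPM) were the lowest of that group. Alad in WT iWAT was 29.3 CPM in mouse 48, below the next library at 33.3 CPM. That library also had the lowest Adipoq level of the WT iWAT libraries (667 CPM). The part of these markers in the values was not tested.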

How the results depend on the processing

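The calls of Alas1, Hmox1, Uros and Cpox between tissues held under every alternative run, in KO and in WT libraries. In the pituitary KO against WT fit the count of called genes was 90, and it was 288 by DESeq2, 44 with age as a covariate, 5 in mice of 21 weeks only and 1 with all 20 libraries in 1 fit. Leaving out each mouse gave 50 to 112, with 55, 50 and 51 without mouse 32, 49 and 56. Ppox kept log2 fold changes of 0.30 to 0.36 under all of these. The member count was 0 in mice of 21 weeks only and 0 with all 20 libraries in 1 fit, and 1 (Ppox) in the other fits. These fits reuse the counts that led to the choice of Ppox, so they are a description and nothing is read from them. The count for the difference of KO effects was 0, and 1 by DESeq2. Urod between WT tissues had adjusted p of 0.0651 with RLE scaling, 0.0709 with no filter, 0.0533 by DESeq2, 0.144 with all 20 libraries and 0.0605 with the replicate block. Alas2 between WT tissues passed with voom (0.36, adjusted p = 0.0346).

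Signs of values with a test turned as follows, none past the threshold unless given. Alas2 between KO tissues was 0.30 with the replicate block, 0.31 with voom and 0.67 without mouse 50 (adjusted p = 0.00255), a range of -0.25 to 0.67 over left-out mice. Fech between KO tissues ran from -0.22 to 0.05 and between WT tissues from -0.14 to 0.066 over left-out mice. In iWAT KO against WT, Urod was 0.048 with age and 0.024 with all 20 libraries. In mice of 21 weeks only Alas1 was -0.35, Alas2 -0.41, Alad -0.072, Uros -0.26 and Fech -0.17. Over left-out mice the iWAT ranges were -0.20 to 0.27 for Alas1, -0.45 to 0.58 for Alas2, -0.058 to 0.14 for Alad, -0.05 to 0.13 for Uros, -0.10 to 0.061 for Urod, -0.12 to 0.18 for Fech and -0.15 to 0.38 for Hmox1. The cause was not tested. Of the values without a test, over left-out mice Alas2 ran from -0.07 to 0.14, Uros from -0.07 to 0.06, Urod from -0.01 to 0.09 and Fech from -0.03 to 0.02 between KO and WT pituitaries, and Ppox from -0.04 to 0.04 in iWAT. In mice of 21 weeks only Alas2 was -0.08 and Fech 0.06 between KO and WT pituitaries, Fech was 0.065 with age, and Ppox in iWAT was 0.02 with all 20 libraries.

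The relation of Hmox1 with macrophage markers fell to r = 0.60 in the pituitary and 0.61 in iWAT without the 2 outermost libraries. Libraries with the same mouse number deviated together little (r = -0.07 to 0.118, median 0.055, 1 of 10 pairs over 0.1). Pairs with different numbers had a median r of -0.016, and 5 of 10 pituitary libraries were nearest their own number. These values do not settle whether a number names 1 animal in both tissues. The pairing stayed out of the main fits. With the number as a block 13197 genes and 6 members differed between WT tissues, 12270 genes and 6 members between KO tissues (Ppox counted in both), and 0 genes in the difference of KO effects. Below about 4 CPM, as for Hmox1 in the pituitary, few reads limit the precision.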
